A study of Mus musculus with 4 samples.

Results

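The 7 genes described here encode the kainate-type glutamate receptor subunits (Grik1, Grik2, Grik3, Grik4 and Grik5) and their auxiliary subunits (Neto1 and Neto2), out of 21896 protein-coding genes of the mouse reference. They were chosen by name, and the Elavl peaks that touch their GRCm38 spans on the strand of most of each gene's peaks were taken from both deposited peak lists. These were 403 of the 97775 peaks of the cortex list and 0 of the 7335 peaks of the N2A list. Elavl HITS-CLIP uses ultraviolet light to crosslink RNA to the Elavl proteins that touch it, and the fragments left on the precipitated protein after partial RNase digestion are sequenced. The cortex group was 3 samples of mouse brain cortex, all prepared with a degenerate linker of 25 nt, and its list carries the term 2month, which the labels do not explain. The N2A group was 1 sample of N2A cells, a mouse neuroblastoma line, prepared with a linker of 7 nt. The labels name no genotype, strain, treatment, age or antibody for either group. Each group had 1 list, so no value belonged to a single sample and no spread between replicates could be computed. A list gives a p-value for each peak, written below as the peak p, which comes from the calling of peaks by the authors. It holds no reads per peak, so the depth is unknown. A peak called strong or weak below is one with a low or high peak p, and strength of binding was not measured. Intervals below cover only the error of counting peaks, which cannot stand for replicates.

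Kainate receptors are glutamate-gated cation channels that sit on both sides of synapses in the brain and modulate transmitter release as well as carrying slow postsynaptic currents. The products of Grik1, Grik2 and Grik3 can form channels by themselves, whereas those of Grik4 and Grik5 bind glutamate with high affinity but need one of the others to form a working channel. Neto1 and Neto2 are transmembrane proteins with CUB domains that slow the gating of these channels, and Neto1 has also been found with NMDA receptors. The Elavl (Hu) proteins bind U-rich and AU-rich stretches in introns and in the untranslated ends of messenger RNAs and affect splicing, stability and translation.

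All 7 genes held cortex peaks, and Grik2 alone held 334 of the 403, or 82.9%. Among all coding genes 40.8% had at least 1 cortex peak, and among the 4944 coding genes spanning 50 kb or more, a class that holds all 7, the share was 72.1%. Neto1 and Neto2 held 23 peaks each, Grik4 held 7, Grik3 and Grik5 held 6 each, and Grik1 held 4. None of the peaks in the 7 spans lay on the opposite strand, where 0.770% of the peaks of all coding genes lay. The strand of most peaks was also the strand of the RefSeq gene start in the 5 genes for which a start was listed. Of the 403 peaks 323 (80.1%) had a p under 0.05, against 77.2% of the whole cortex list. With p under 0.001, 105 peaks were left in Grik2, 13 in Neto1, 8 in Neto2, 4 in Grik3 and 1 each in Grik1, Grik4 and Grik5, so every gene kept at least 1.

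Grik2 was the longest of the 7 (696 kb) and had the most peaks, but number did not follow length in the other genes. Grik1 (395 kb) and Grik4 (427 kb) are among the longest of the 7 and had 4 and 7 peaks, while Neto2 (64.2 kb) is the shortest and had 23. The 154 coding genes of 350 to 450 kb had a median of 19.5 cortex peaks, and 30.5% of them had 7 or fewer. Peaks per 100 kb of span, with exact Poisson 95% intervals, ran from 48.0 (42.9 to 53.4) in Grik2 through 35.8 (22.7 to 53.7) in Neto2 and 20.6 (13.0 to 30.8) in Neto1. Grik5 followed at 9.11 (3.34 to 19.8), then Grik3 at 2.68 (0.983 to 5.83), Grik4 at 1.64 (0.659 to 3.38) and Grik1 at 1.01 (0.276 to 2.59). For each pair of neighbours in this order the interval of the ratio held 1. Of the 15 other pairs, the interval excluded 1 in 14 and held it for Grik3 against Grik1 (ratio 2.65, 0.627 to 12.7). These intervals were not adjusted for the number of pairs or for ordering the genes by the same counts. They also treat peaks as independent, although those of Grik2 were not evenly placed. The density of Grik2 was 47.4 times that of Grik1 (18.3 to 175) and 29.2 times that of Grik4 (14.0 to 73.3), and that of Neto2 was 3.93 times that of Grik5 (1.56 to 11.8). The median density of coding genes of 50 kb or more was 4.32 peaks per 100 kb, with quartiles of 0 and 13.4. By density Grik2 ranked 68 and Neto2 192 of the 4944 genes, and Neto1 ranked 716, Grik5 1709, Grik3 2836, Grik4 3123 and Grik1 3360. RNA abundance was not measured, so a gene with few peaks and a gene with little RNA cannot be told apart, and in tissue neither can fewer cells that transcribe it and less RNA per cell.

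**Figure D1:**
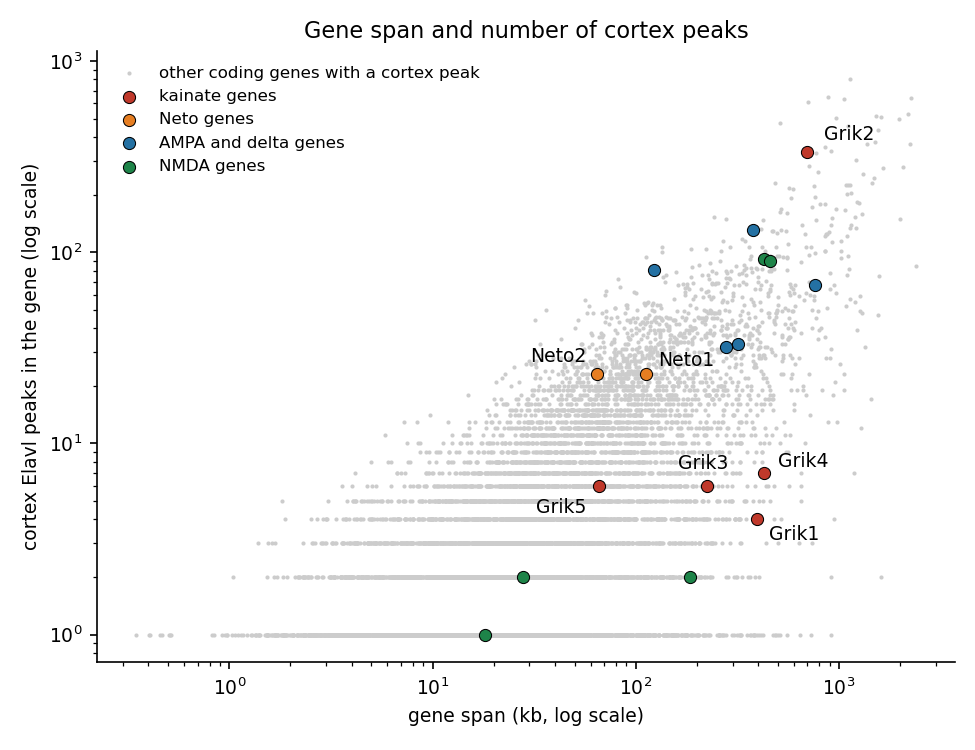
Each point is a coding gene with at least 1 cortex peak, placed by its span in kb (horizontal log axis) and its number of cortex peaks (vertical log axis), with kainate, Neto, AMPA and delta, and NMDA receptor genes in colour. Grik2 lies near the top of the cloud with 334 peaks, while Grik1 and Grik4, at 395 and 427 kb, lie low with 4 and 7.

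Grik2 encodes GluK2, a subunit whose pore is recoded by RNA editing. Its span on the minus strand of chromosome 10 (49093680 to 49790161, GRCm38) covered 696 kb, and by number of cortex peaks it ranked 19 among the 8930 coding genes that had any. Its peaks were spread along the whole gene. The centres lay between 1.41 and 689 kb from the gene end, the median step from one peak to the next was 0.992 kb, 169 of the 333 steps were under 1 kb, and the longest stretch without a peak was 14.8 kb. Hardly any touched each other, since merging peaks with gaps under 50 nt left 332 sites.

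The Grik2 peaks were not evenly placed. Counted in 10 equal bins from the start of the span to its end, each of 69.6 kb, there were 49, 54, 27, 23, 21, 20, 31, 50, 35 and 24 peaks. The gene was thus densest in its first 2 bins and in the eighth, and sparsest in the sixth. The first 2 bins held 103 peaks (30.8%), and the 4 bins after them together held 91 (27.2%). The most crowded 10 kb held 19 peaks and began 169 kb from the gene end. Of the 22 peaks with p under 1e-10 the same 3 bins held 5, 3 and 7, while the last bin had 2 such peaks among its 24 and the lowest median p, 0.00110.

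**Figure D2:**
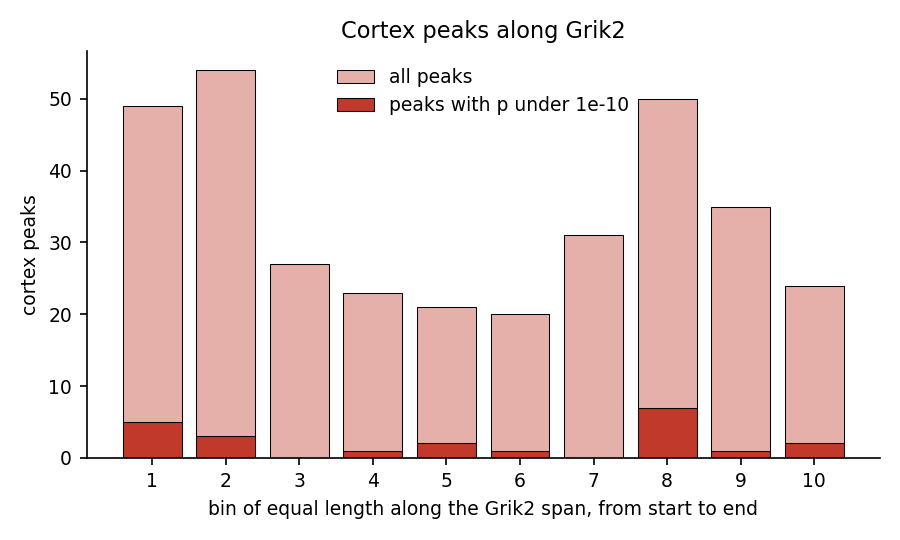
Bars give the number of cortex peaks in each of 10 equal bins of the Grik2 span from start to end, with peaks of deposited p under 1e-10 in dark red. The second bin holds 54 peaks and the eighth 50, against 20 in the sixth.

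The Grik2 peak with the lowest p lay at 49711554 to 49711605 (peak p of 2.39e-90), 78.6 kb from the start of the span and 618 kb from its end. Only 0.773% of the peaks of the cortex list had a lower p. The next was at 49242122 to 49242172 (peak p of 3.81e-35), 148 kb from the end, and the third at 49377284 to 49377334 (peak p of 6.35e-28), 284 kb from it. All of these lay deep inside the gene. Within 5 kb of the end there were 6 peaks, the strongest at 49095069 to 49095120 (peak p of 6.11e-22), 1.41 kb from the end. A further peak, at 49093627 to 49093677 (peak p of 0.00243), began 3 nt past the annotated end and was not counted. At the other end of the gene, the first peak lay 5.78 kb after the RefSeq start site, at 49782946 to 49782996 (peak p of 1.36e-11).

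**Figure D3:**
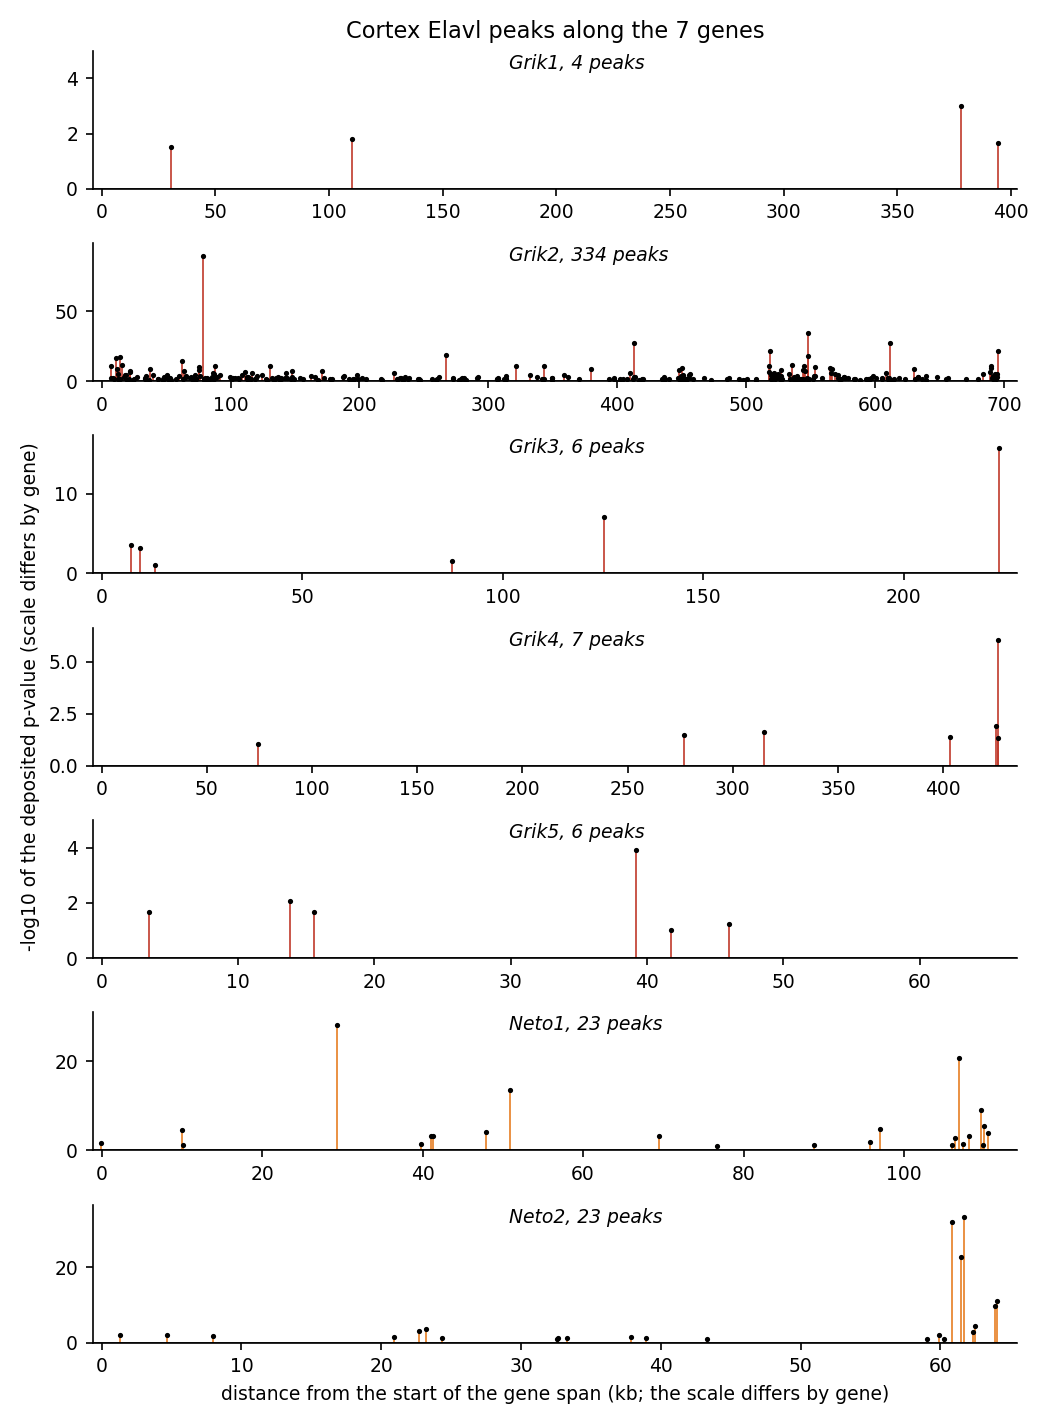
Each panel is one of the 7 genes drawn from the start of its span (left) to its end (right) in kb, and each line is a cortex peak with the height of -log10 of its deposited p, on a scale that differs by gene. Grik2 carries 334 peaks along its whole length, while the tallest lines of Grik3, Grik4 and Neto2 stand near the gene end.

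Grik1 and Grik3 encode the other subunits able to form channels by themselves, GluK1 and GluK3, and had sparse peaks. Grik1, on the minus strand of chromosome 16 (87895901 to 88290863), had 4 peaks. They lay 0.723, 17.0, 285 and 364 kb from the gene end, with p-values of 0.0219, 0.000972, 0.0156 and 0.0300. The strongest, at 87912841 to 87912892, also lay in the span of a long noncoding RNA gene, 4930590A17Rik, whose RefSeq start is on the plus strand. It was the only one of the 403 peaks that touched another annotated gene. Of the cortex list 33.3% had a lower p than this peak, and the other Grik1 peaks were weaker still.

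Grik3, on the plus strand of chromosome 4 (125490259 to 125714173), had 6 peaks in 224 kb. The strongest was the last one, at 125714066 to 125714117 (peak p of 2.03e-16), whose centre lay 0.0815 kb before the annotated end. It was followed by a peak near the middle of the gene, at 125615417 to 125615468 (peak p of 9.73e-08). A group of 3 peaks lay 7.43, 9.53 and 13.3 kb from the start of the span, with p-values of 0.000266, 0.000728 and 0.0859. The lowest p of Grik3 thus belonged to 1 peak at its end, and 6.45% of the cortex list had a lower p than this peak.

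Grik4 and Grik5 encode the high-affinity subunits GluK4 and GluK5. Grik4, on the minus strand of chromosome 9 (42518182 to 42945000), had 3 of its 7 peaks in the last 5 kb, at 0.575, 0.828 and 1.81 kb from the end. The outermost of these, at 42518731 to 42518782, was the strongest (peak p of 9.63e-07), and the others had p-values of 0.0472 and 0.0128. The remaining 4 peaks were scattered over the rest of the gene with p-values from 0.0227 to 0.0859. Grik5, on the minus strand of chromosome 7 (25009849 to 25075694), showed another picture, with no peak in its last 19.8 kb. Its 6 peaks had p-values from 0.000118 to 0.0964, the lowest at 25036458 to 25036508, 26.6 kb from the end. The first Grik5 peak, at 25072214 to 25072264 (peak p of 0.0219), was centred 130 nt after the RefSeq start site. No peak of the 5 genes with a listed start touched the window from 250 bases before it to 50 bases after it.

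Neto1, on the plus strand of chromosome 18 (86394815 to 86506721), combined strong peaks inside the gene with a group at its end. Its lowest p belonged to a peak at 86424084 to 86424134 (peak p of 8.14e-29), 29.3 kb from the start of the span. Another strong peak lay at 86445716 to 86445767 (peak p of 3.43e-14). The last 6 kb held 9 peaks with p-values from 2.21e-21 to 0.0704, and the strongest of these, at 86501661 to 86501712, fell just outside the 5 kb window, at 5.03 kb. The window itself held 6 peaks, the lowest p being 8.54e-10. The first peak of Neto1, at 86394764 to 86394815 (peak p of 0.0265), touched the span by its outermost base.

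Neto2, on the minus strand of chromosome 8 (85636718 to 85700952), had its strong peaks at the gene end alone. Of its 23 peaks 9 lay in the last 5 kb, and these included all 4 with p under 1e-10. The strongest were at 85639201 to 85639252 (peak p of 7.86e-34), 85640114 to 85640164 (peak p of 1.62e-32) and 85639464 to 85639515 (peak p of 2.70e-23), between 2.51 and 3.42 kb from the end. A further pair lay 0.206 and 0.356 kb from it, with p-values of 9.97e-12 and 1.70e-10. The median p was 1.70e-10 in the last 5 kb and 0.0399 over the other 14 peaks, whose lowest p was 0.000260. In Neto1 the corresponding medians were 0.000336 and 0.000561.

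The end of the gene was then compared with the rest of the span across the group. Peaks within 5 kb of the end were found in 6 of the 7 genes, Grik5 being the exception, where 53.5% of coding genes of 50 kb or more and 31.3% of all coding genes had one. Of the 403 peaks 26 lay there, a share of 6.45% (Wilson 95% interval 4.44 to 9.29), against 11.96% (11.7 to 12.2) of the peaks of coding genes of 50 kb or more. This share was set by Grik2, where 6 of 334 peaks (1.80%) lay near the end. In the 6 genes without Grik2 it was 20 of 69 (29.0%, 19.6 to 40.6). Per kb, the last 5 kb carried more peaks than the rest of the gene in Neto1 (1.20 against 0.159 per kb, ratio 7.55, exact 95% interval 2.44 to 20.1), in Neto2 (1.80 against 0.236, ratio 7.62, 2.91 to 18.9) and in Grik4 (0.600 against 0.00948, ratio 63.3, 9.27 to 374). In Grik2 the last 5 kb had 1.20 peaks per kb, as in Neto1, but the rest of the gene had 0.474, and the interval of the ratio of 2.53 (0.922 to 5.57) held 1. Over coding genes of 50 kb or more with a cortex peak the ratio was 4.73 (4.62 to 4.83). The intervals for Grik1 (26.0, 0.495 to 324), Grik3 (8.76, 0.185 to 78.3) and Grik5 (0, up to 10.3) were too wide to tell the end from the rest. That of Grik4 rests on 3 peaks near the end and 4 elsewhere. None of these intervals was adjusted for the number of genes, and all treat peaks as independent. Exons, introns and untranslated regions were not analysed here, so a peak near the gene end is given by its distance alone.

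**Figure D4:**
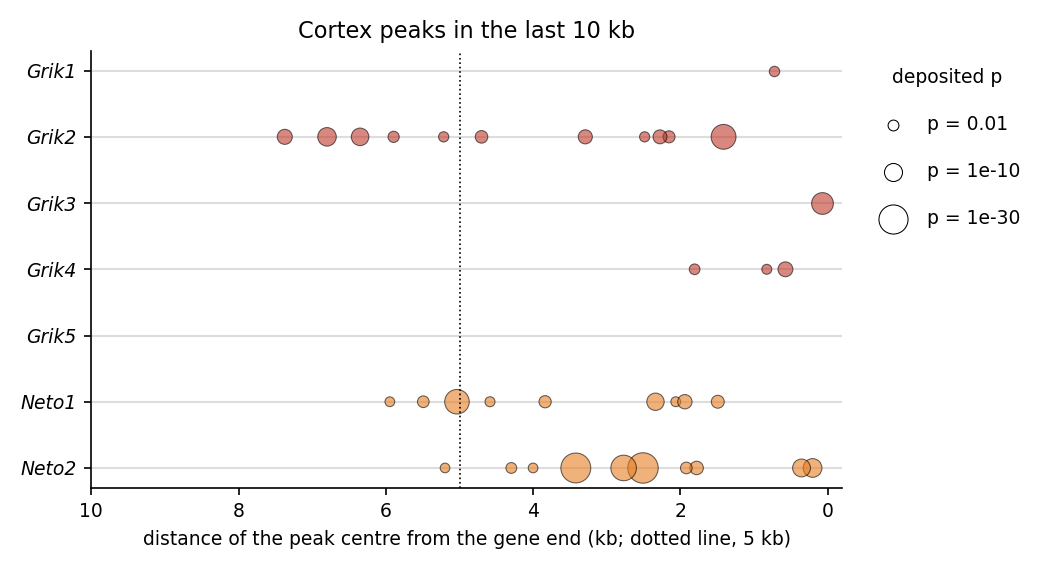
Each circle is a cortex peak in the last 10 kb of a gene, placed by the distance of its centre from the gene end in kb, with an area that grows with -log10 of its deposited p. Neto2 has 9 circles inside the 5 kb line and Grik2 and Neto1 have 6 each, while Grik5 has none.

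No N2A peak lay in any of the 7 genes on either strand. Among all coding genes 14.4% had an N2A peak, and among those of 50 kb or more 24.8% did. The 7 genes held 0.412% (Wilson 95% interval 0.374 to 0.454) of the cortex list, and 0 of 7335 N2A peaks allows a share of up to 0.0409%. Peaks of N2A cells lay mostly near gene ends, with 79.0% of those in coding genes within 5 kb, against 19.9% in cortex. Counted there alone, the 7 genes held 26 of 18900 near-end cortex peaks (0.138%, 0.0939 to 0.201), and 0 of 5607 near-end N2A peaks allows up to 0.0535%. Both upper limits lay below the cortex intervals, but these treat each peak as independent. With 1 list per group, they are not a test between the groups. Grik2 held 334 of the 403 cortex peaks and 6 of the 26 near the end. By gene, 0 of 7 stood beside the 24.8% of coding genes of 50 kb or more. This difference was not tested. Whether N2A cells transcribe these genes was not measured, and the number of samples, the linker and the length of the list differed with the group, so these cannot be told apart from the cell type.

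The AMPA and delta receptor genes analysed here (Gria1 to Gria4 and Grid1) and the NMDA receptor genes (Grin1, Grin2a to Grin2d, Grin3a, Grin3b) were counted in the same way. Cortex peaks lay in 5 of 5 and 5 of 7 of them, with 344 and 187 peaks, and 0 of the 12 had an N2A peak. Over all coding genes the shares with a peak were 40.8% in cortex and 14.4% in N2A. Over coding genes of 50 kb or more they were 72.1% and 24.8%, but Grin1, Grin2c, Grin2d and Grin3b are shorter than that. The median density was 11.5 peaks per 100 kb in the AMPA and delta genes, 5.52 in the NMDA genes and 9.11 in the kainate and Neto genes. Grik2, at 48.0, lay between Gria2 at 66.0 (52.4 to 82.0), the AMPA subunit that sets calcium permeability, and Gria4 at 34.6 (28.9 to 41.1). Neto1, at 20.6, lay between the NMDA subunits Grin2a at 21.5 (17.3 to 26.4) and Grin2b at 19.5 (15.7 to 24.0). The low densities of Grik1, Grik3 and Grik4 were near that of Grin3a, at 1.08 (0.131 to 3.92). The best p of Grik2, 2.39e-90, was higher than that of the AMPA subunits Gria1 (1.89e-118), Gria2 (3.84e-170) and Gria3 (3.14e-260) and of Grin2a (1.39e-102) and Grin2b (7.35e-209), although Grik2 had more peaks than any of the 12. The share of peaks within 5 kb of the end was 7.56% (5.21 to 10.8) in AMPA and delta genes and 9.09% (5.75 to 14.1) in NMDA genes. These values are side by side, and differences between the families were not tested.

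**Figure D5:**
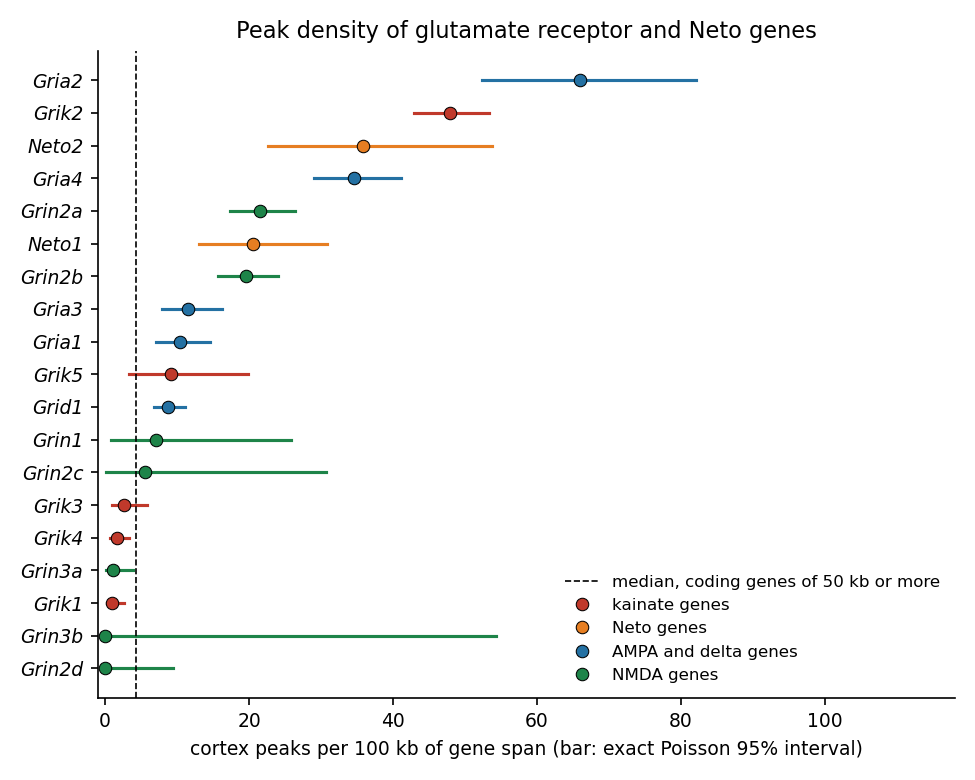
Points give cortex peaks per 100 kb of span for the 7 kainate and Neto genes and the 12 AMPA, delta and NMDA receptor genes, bars the exact Poisson 95% interval, and the dashed line the median of 4.32 over coding genes of 50 kb or more. The kainate genes range from Grik1 at 1.01 to Grik2 at 48.0.

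A list of 26 genes whose products bind, cluster, modify or edit kainate receptors was read beside the subunits. Cortex peaks lay in 23 of them, the exceptions being C1ql2, Grip2 and Klhl17. Among all coding genes 40.8% had one, and among those of 50 kb or more 72.1% did. The median density of the 26 genes was 16.6 peaks per 100 kb. Dlg2, a postsynaptic scaffold of the PSD-95 family, had 496 peaks (25.1 per 100 kb), and its relative Dlg1 had 64 (30.5 per 100 kb). Grip1, a PDZ protein that binds glutamate receptor tails, had 59 (9.31 per 100 kb). The adhesion molecule Cdh2 had 42, the SNARE protein Snap25 had 37 and the kinase gene Prkca had 34. Adarb1, the enzyme that edits the Grik2 pore codon, had 20 peaks with a best p of 7.17e-106. Of the 26 genes 11 (42.3%) had N2A peaks, against 14.4% of all coding genes and 24.8% of those of 50 kb or more. Of the 7 subunit genes 0 had any. Among the 11 were Snap25, Dlg4 and Ctnnb1 with 2 each. This difference between the lists was not tested.

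The 3 coding genes nearest to Grik2 in span, cortex peaks and N2A peaks (Euclidean distance on log2 scales, 1 added to the peak numbers) were Adgrb3, with 331 cortex peaks in 767 kb, Ralyl, with 281 in 711 kb, and Celf2, with 353 in 857 kb. Each had 0 N2A peaks and 3 cortex peaks within 5 kb of the gene end, against 6 in Grik2. The likeness rests on these 3 numbers from 2 lists.

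Peaks in marker genes were compared with the labels, beside shares over all coding genes of 40.8% in cortex and 14.4% in N2A. In cortex, peaks lay in 5 of 5 excitatory neuron, 3 of 5 interneuron, 3 of 4 astrocyte, 4 of 4 oligodendrocyte and 1 of 4 microglia markers, and Sst, Slc32a1, Gfap, Cx3cr1, Csf1r and Aif1 had none. Glial as well as neuronal markers thus carried cortex peaks, and the part of glia in the peaks of the 7 genes was not tested. In N2A, peaks lay in 4 of 7 sympathoadrenal and neuroblastoma markers (Phox2a, Hand2, Gata2 and Mycn), with Gata3, Th and Dbh at 0, and in 0 markers of the brain cell types. In cortex, 2 of these 7, Gata3 and Mycn, had 1 peak each.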

How the data were processed

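Per the file headers, each peak of 50 to 51 nt has a position, a strand and a p-value in the deposited lists; the authors' values run up to 0.0999 in cortex. The submitters' processing notes name Novoalign and the build hg19. Not given in the sources used here are the peak caller, its filters, any adjustment of the p-values and how the 3 cortex samples were combined. Chromosome names and gene positions are those of mouse, and coordinates, printed as deposited, were read as GRCm38 against RefSeq gene spans (GRCm38.p6). The peaks' majority strand matched the listed start in 95.6% of 7346 coding genes.

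A peak counted for a gene when it touched the span by at least 1 nt on the strand of most of the gene's peaks. Distances run from the peak centre to the end of the span. Ratios of rates have Clopper-Pearson intervals. A count of 0 was given an upper limit of 3 counts. PCR reads are not independent molecules. The counting code was checked on made-up genes with known peaks. Python 3.11, scipy 1.17.1 and statsmodels 0.14.6 were used. The members and gene lists were chosen with earlier results of these data known. Named genes were the 7 members, the partner genes with the most peaks and the exceptions, the 3 genes nearest to Grik2, and the genes touching a member peak. Examples from the comparison families, and N2A examples, were chosen after their values were seen. Alternatives changed the p threshold, strand, overlap, merging and end window. Of the fixed comparison lists, 3 genes are not reported here.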

Additional observations from a re-analysis of the deposited data

How the results depend on the processing

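All 7 genes kept a cortex peak with p under 0.05 or under 0.001. They also did with the whole peak inside the span and without peaks in another gene's span. The shares of all coding genes that kept one under these settings were not computed. Counting both strands, which could only add peaks, added none from either list. The other settings could only remove or merge N2A peaks, so the N2A count of 0 was fixed under them. With p under 0.001, the 403 cortex peaks became 133, the share near the end 12.8% and the density over the 7 spans 6.70 per 100 kb, where it was 20.3. At that threshold the share near the end was no longer below the 11.96% of coding genes of 50 kb or more. The 11.96% covers all peaks and was not recomputed with p under 0.001. With p under 0.05 the density was 16.3, and a stricter threshold leaves fewer peaks by construction. A window of 2 kb held 2.98% of the peaks. Without Grik2, an alternative chosen after seeing the data, 69 peaks, a share of 29.0% and a density of 5.36 remained. The other 31 of 39 values recomputed stayed within the interval of the reported value or, for counts, within 1.5 times of it. They include the N2A counts of 0, which most settings could not change. The overlap of N2A with cortex peaks could not be computed, as there was no N2A peak. No paired analysis was possible because each group had 1 list, and for the same reason no replicate could be left out. The depth is unknown, so genes with few peaks may be limited by it.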

Other observations

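Genes beside the kainate subunits had N2A peaks that overlapped cortex peaks. Zfp574, a zinc finger gene whose span meets the start of Grik5, had a cortex peak at 25082350 to 25082401 (peak p of 6.63e-23) and an N2A peak at 25082357 to 25082407 (peak p of 6.67e-05), both on the plus strand of chromosome 7. Itfg1, which lies before the start of Neto2, had them at 85717643 to 85717693 (peak p of 2.91e-45) and 85717654 to 85717704 (peak p of 1.14e-13) on the minus strand of chromosome 8. Arhgef12, before the start of Grik4, had them at 42964702 to 42964752 (peak p of 1.07e-12) and 42964694 to 42964745 (peak p of 7.76e-12) on the minus strand of chromosome 9. These 3 were the only N2A peaks within 20 kb of any of the 7 spans.

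Many deposited p-values recurred exactly. Of the 403 peaks 265 (65.8%) had a p that another peak of the cortex list also had, against 68.7% of the whole list. One peak of Grik3 and one of Grik4 had the same p of 0.0859, which 214 cortex peaks shared, and one peak of Grik1 and one of Grik5 had the same p of 0.0219, shared by 20.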
